A study of Sus scrofa with 8 samples.

Results

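Cytochromes P450 and the enzymes that conjugate their products were compared between the livers of lactating and non-lactating sows. The members were every gene whose deposited symbol began with CYP and a digit, leaving out the sterol synthesis enzyme CYP51, or belonged to the UDP-glucuronosyltransferases (UGT1, UGT2), the sulfotransferases (SULT), the glutathione S-transferases (GST) or the microsomal glutathione S-transferases (MGST), with the electron donors POR, CYB5A and CYB5R3. This rule found 36 genes among 8238 with a symbol of their own on the array. They were 26 P450s, 8 conjugating enzymes (3 SULT, 3 GST and 2 MGST genes) and the electron donors POR and CYB5A. The rule picked genes by name and by no measured value, but it was set with earlier results of these data known. Where a gene had several probe sets, the one with the highest mean signal over all arrays stood for it. UGT and CYP4 genes were read only by probe sets that name several genes or through updated symbols, and are described apart below. CYB5R3 and the bile acid enzymes CYP7A1, CYP39A1 and CYP46A1 were not analysed here.

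The animals were female pigs (Sus scrofa), labelled as lactating or as non-lactating controls, with no genotype, treatment, breed, age, litter size or day of lactation in the labels. Each group comprised 8 sows, and equal amounts of liver RNA from 2 sows formed each of 4 pools per group. Each pool was measured on 1 Affymetrix Porcine array, so n = 4 pools per group, the spread seen here is one between mixtures of 2 sows, and the number of arrays limits the precision. Values are log2 signals, on which a difference of 1 is a doubling, and differences are lactating minus non-lactating. They were tested with limma, a linear model with a spread estimate shared across probe sets, and p-values were adjusted by Benjamini-Hochberg over 23999 probe sets with a threshold of 0.05. Signals of different probe sets depend on their probes and cannot be ranked against each other.

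Most P450s of families 1 to 3 oxidise drugs, plant compounds, steroids and fatty acids at the endoplasmic reticulum of the hepatocyte, and the liver is their main site. They take their electrons from NADPH through P450 oxidoreductase (POR), with cytochrome b5 as an additional donor. Transferases then attach glucuronic acid, sulfate or glutathione, which makes the products more soluble in water for export into bile or urine. Other P450s make bile acids and steroid hormones or inactivate vitamins A and D.

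Of the 36 genes, GSTO1 and POR were higher in lactating liver, none was lower and 34 did not pass the test. Over all genes with a symbol, 709 passed, 8.61% of 8238, with 501 higher and 208 lower. Over all probe sets, 1643 passed (6.85%). The 2 calls among 36 genes are thus no more frequent than in the background. At an unadjusted p below 0.05, 9 members passed against 27.3% of all genes, and the pools of the 2 groups did not overlap for 5 members (CYB5A, CYP2A19, CYP19A2, GSTO1 and MGST1) against 19.2% of all genes. The median difference of the members was -0.05 and that of all genes 0.01, and the median size of a difference, regardless of sign, was 0.14 in both. None of the 26 P450s passed in limma, 6 of them had an unadjusted p below 0.05, and 7 had positive and 19 negative differences.

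**Figure D1:**
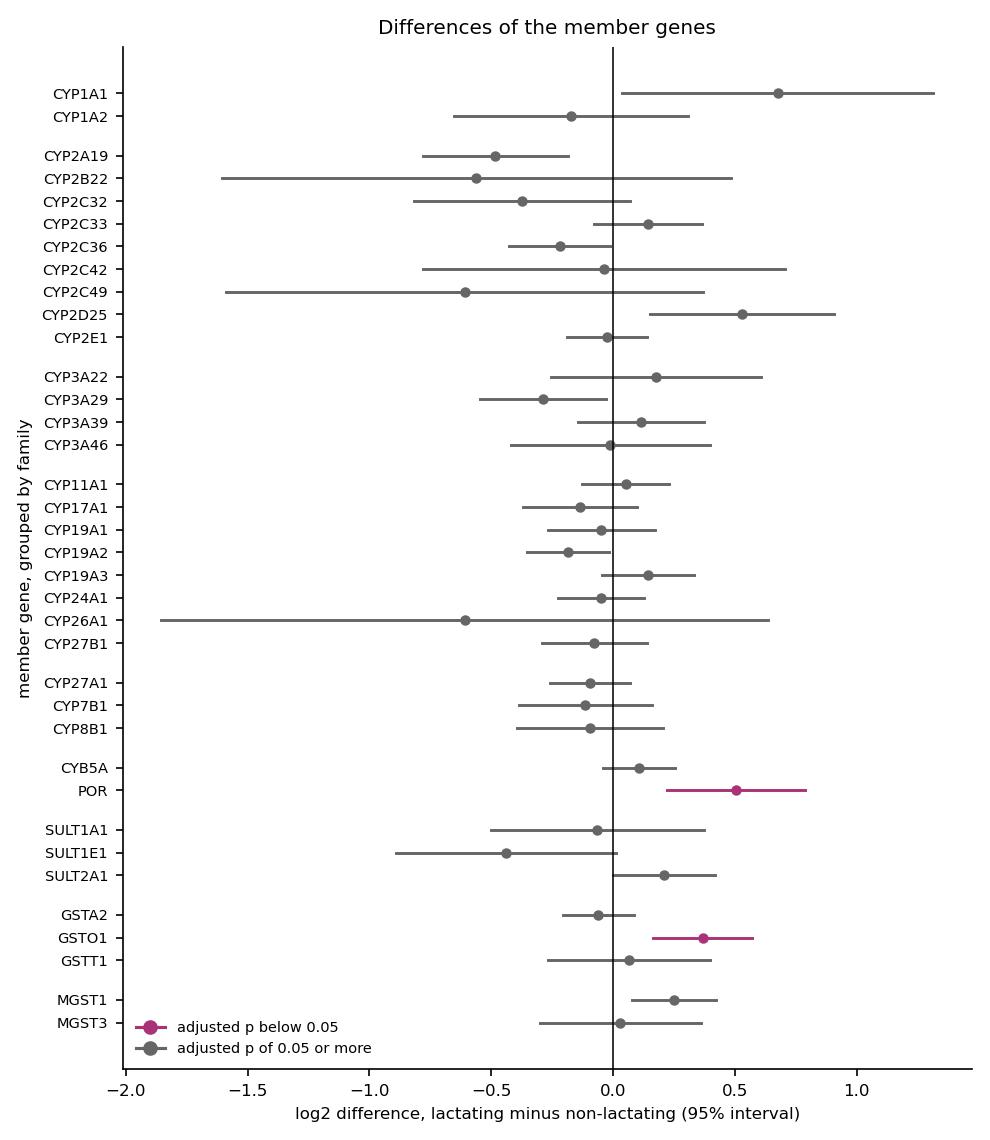
Log2 difference between lactating and non-lactating liver for each of the 36 member genes, with its 95% interval from limma (4 pools per group), grouped by family. Only POR and GSTO1 passed the adjusted threshold of 0.05, and the intervals of CYP26A1, CYP2B22 and CYP2C49 are among the widest.

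**Figure D2:**
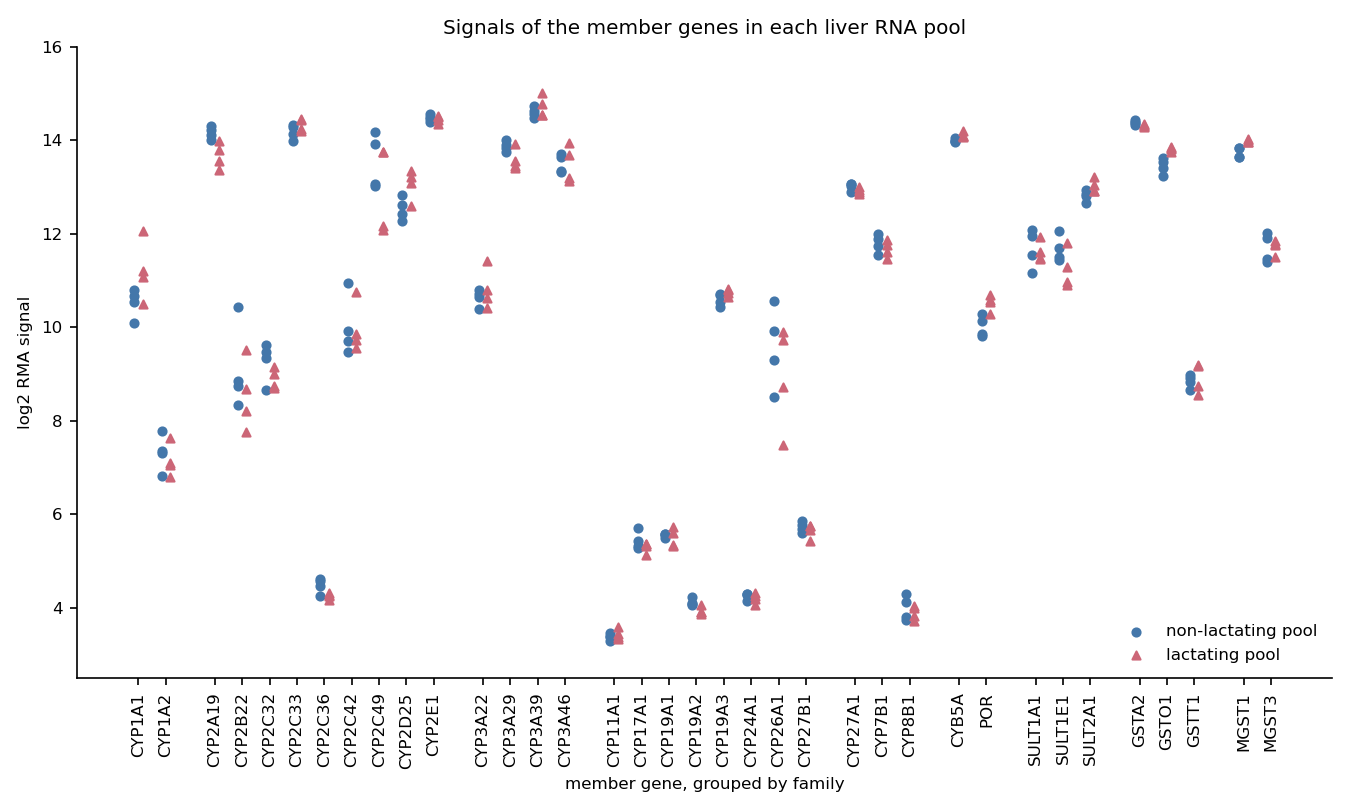
Log2 signal of each member gene in each pool, circles for the 4 non-lactating and triangles for the 4 lactating pools. Pools of both groups overlap for most genes, and CYP26A1, CYP2B22 and CYP2C49 spread widely within both groups.

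POR hands electrons from NADPH to the microsomal P450s. Its log2 signal was 9.81, 10.29, 10.13 and 9.86 in non-lactating pools 1 to 4 and 10.69, 10.58, 10.29 and 10.55 in lactating pools 1 to 4. The highest non-lactating pool (2) and the lowest lactating pool (3) read the same to 2 decimals, and otherwise every lactating pool lay above every non-lactating one. The difference was 0.50 ± 0.13 (SE), a 1.42-fold higher signal in lactation with a 95% interval of 1.17 to 1.73 and an adjusted p of 0.0437. It passed the threshold when non-lactating pool 2 or lactating pool 3 was left out and lost it without any other single pool, with adjusted p between 0.0341 and 0.117 and differences of 0.43 to 0.59.

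CYB5A encodes cytochrome b5, which lends electrons to some P450 reactions and to fatty acid desaturation. It read 14.00, 14.00, 14.04 and 13.98 in the non-lactating and 14.07, 14.20, 14.09 and 14.09 in the lactating pools. The groups did not overlap, yet the gap was small, at 0.11 ± 0.07 (adjusted p = 0.389). CYB5B, the outer mitochondrial membrane form of cytochrome b5 and no member, rose by 0.61 ± 0.16 (adjusted p = 0.0490).

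GSTO1, an omega-class transferase that in humans reduces dehydroascorbate and arsenic compounds, was the other member to pass. Its probe set aligns to chr14:120314362-120324715 on the plus strand, as the deposited alignment column gives it. That column gives no assembly name in the sources used here. GSTO1 read 13.25, 13.62, 13.55 and 13.41 in non-lactating pools 1 to 4 and 13.76, 13.83, 13.84 and 13.86 in lactating pools 1 to 4. All lactating pools lay above all non-lactating pools, and the lactating pools were close together (SD 0.04 against 0.16). The difference was 0.37 ± 0.09, or 1.29-fold (95% interval 1.12 to 1.48, adjusted p = 0.0411). GSTO1 kept its call only without non-lactating pool 2 and lost it without each of the other 7 pools, with adjusted p of 0.0380 to 0.0990 and differences of 0.30 to 0.42.

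RNA quality readings moved with the groups. The Affymetrix control probe sets for GAPDH, actin and EF1a gave a mean 3' minus 5' log2 signal of 5.02, 4.21, 4.14 and 4.49 in the non-lactating and 3.90, 4.00, 3.75 and 3.34 in the lactating pools, with no overlap (difference -0.72, exact permutation p = 0.0286, two-sided, the smallest that 4 against 4 pools can give). A larger value means relatively less signal from the 5' end of the transcripts. With this reading as a covariate no member passed, POR differed by 0.31 and GSTO1 by 0.16, and no probe set of the whole array passed in limma, with 2474 at an unadjusted p below 0.05. The SE rose from 0.13 to 0.19 for POR and from 0.09 to 0.11 for GSTO1. Because the reading separates the groups, lactation and RNA quality cannot be told apart here, and differences with the covariate are not corrected effects.

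**Figure D3:**
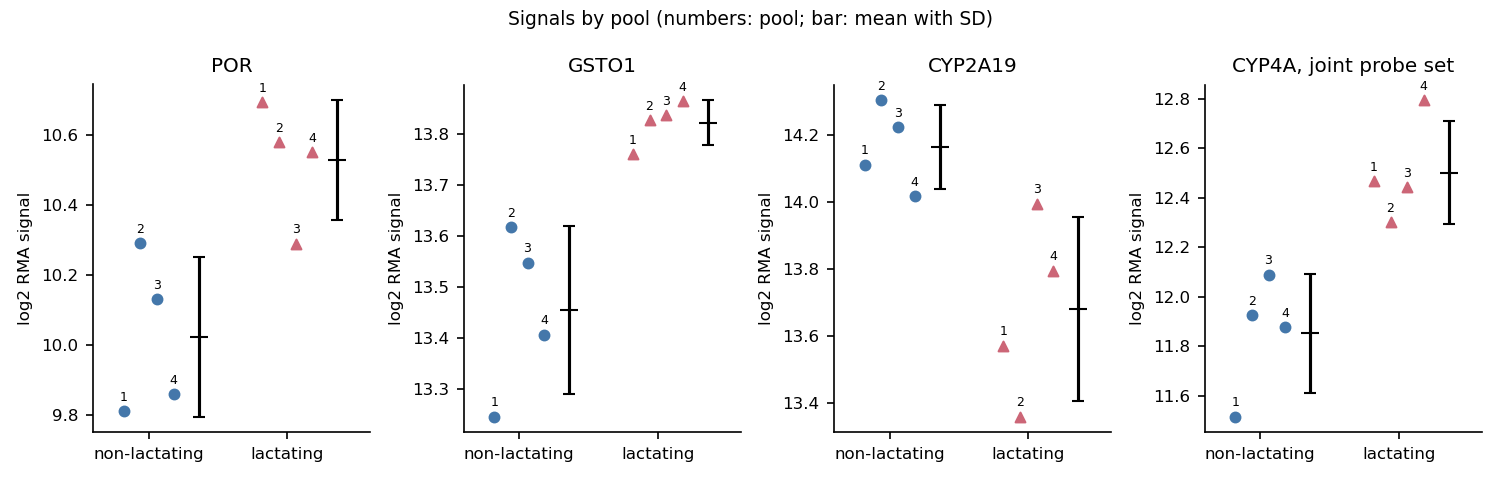
Log2 signals of POR, GSTO1, CYP2A19 and the joint CYP4A probe set in each numbered pool, with the group mean and SD beside the points (n = 4 pools per group). The lactating pools lie above all non-lactating pools for GSTO1 and CYP4A and below them for CYP2A19, while POR touches at non-lactating pool 2 and lactating pool 3, and each panel has its own axis, which does not start at 0.

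CYP1A1 and CYP1A2 oxidise planar aromatic compounds and are classical targets of the aryl hydrocarbon receptor. CYP1A1 read 10.81, 10.10, 10.68 and 10.54 in the non-lactating and 10.50, 11.08, 12.06 and 11.20 in the lactating pools. Lactating pool 3 was the highest, lactating pool 1 lay within the non-lactating range, and the difference of 0.68 ± 0.29 did not pass (adjusted p = 0.193). Without lactating pool 3 it was 0.39. CYP1A2 differed by -0.17 ± 0.22 (adjusted p = 0.700), and the receptor AHR by -0.06 (adjusted p = 0.834).

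Among 9 CYP2 genes, 7 differences were negative, 2 were positive and none passed in limma, with 3 at an unadjusted p below 0.05. CYP2E1, which oxidises ethanol, acetone and, in pigs, skatole, read 14.40, 14.56, 14.50 and 14.46 in the non-lactating and 14.45, 14.35, 14.52 and 14.51 in the lactating pools. The ranges lay over each other, and the difference was -0.03 with a 95% interval of -0.19 to 0.14 (adjusted p = 0.890). It was -0.11 ± 0.07 after cyclic loess and -0.15 ± 0.11 with the 3' minus 5' covariate. Signals this close to the top of the array (15.2) may understate a change in the transcript, which was not tested. CYP2C49 read 13.07, 14.18, 13.93 and 13.03 in the non-lactating and 13.76, 13.75, 12.17 and 12.08 in the lactating pools. Within each group a high pair and a low pair of pools stood apart, and the difference of -0.61 ± 0.44 was smaller than that spread (adjusted p = 0.463), running from -0.88 to -0.32 with 1 pool left out in turn.

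The values of CYP2A19, CYP2D25 and CYP2B22 are given in full because they neared or passed the threshold in some settings, a choice made after their values were seen. CYP2A19, a pig P450 that hydroxylates coumarin and takes part in the breakdown of skatole, aligns to chr6:33615496-33623014. It read 14.11, 14.30, 14.22 and 14.02 in the non-lactating and 13.57, 13.36, 13.99 and 13.79 in the lactating pools. All lactating pools lay below all non-lactating ones, lactating pool 3 by a narrow margin. The difference was -0.48 ± 0.13 (adjusted p = 0.0580), and without lactating pool 3 it was -0.59 (adjusted p = 0.0405). Without each of the other 7 pools it did not pass (adjusted p up to 0.124), and with the 3' minus 5' covariate it was -0.71 (adjusted p = 0.340).

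CYP2D25, the microsomal vitamin D hydroxylase of pig liver, read 12.28, 12.83, 12.61 and 12.44 in the non-lactating and 13.35, 12.61, 13.09 and 13.22 in the lactating pools. Lactating pool 2 alone lay within the non-lactating range. The difference was 0.53 ± 0.17 (adjusted p = 0.0923), and without lactating pool 2 it was 0.68 (adjusted p = 0.0366). Without each of the other 7 pools it did not pass, at 0.43 or more and adjusted p up to 0.226, and with the 3' minus 5' covariate it was 0.15 (adjusted p = 0.853). CYP2B22, the pig CYP2B enzyme, read 8.35, 8.74, 8.86 and 10.44 against 7.76, 8.20, 8.67 and 9.51, with pool 4 the highest in each group, and differed by -0.56 ± 0.47 (adjusted p = 0.536). Without non-lactating pool 4 this was -0.11, and over all left-out pools it ran from -0.89 to -0.11. CYP2B22 was called lower with the pool number as a block. CYP2C33 differed by 0.14, CYP2C32 by -0.37, CYP2C36 by -0.22 and CYP2C42 by -0.04, with adjusted p from 0.195 to 0.967. A dimmer probe set of CYP2C42 differed by -0.36 ± 0.12 (adjusted p = 0.102), its groups not overlapping. The dimmer ones of CYP2C36 and CYP2C32 differed by 0.15 ± 0.12 and -0.16 ± 0.49 (adjusted p = 0.506 and 0.892).

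CYP3 enzymes hydroxylate steroids and many drugs. CYP3A39 read 14.62, 14.74, 14.57 and 14.49 in the non-lactating and 14.55, 14.54, 14.77 and 15.02 in the lactating pools, a difference of 0.12 ± 0.12 (adjusted p = 0.616). CYP3A29, the pig relative of the human drug-metabolising CYP3A4, read 13.91, 13.84, 13.76 and 14.01 in the non-lactating and 13.46, 13.56, 13.92 and 13.42 in the lactating pools. Lactating pool 3 alone lay within the non-lactating range, and the difference of -0.29 ± 0.12 did not pass (adjusted p = 0.173). CYP3A22 differed by 0.18 ± 0.19 (adjusted p = 0.651). Lactating pool 4 was the highest of all 8 pools for CYP3A39, for CYP3A22 at 11.42 and for CYP3A46 at 13.94, and the lowest for CYP3A29. Without that pool the difference of CYP3A22 was -0.03 and that of CYP3A39 0.02.

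The probe sets of CYP3A46 did not read alike. The brightest, which stood for the gene, differed by -0.01 ± 0.18, while the other ones differed by 0.58 ± 0.25 and 0.53 ± 0.21 (adjusted p = 0.199 and 0.167). Over all members, 14 further probe sets of 7 genes were measured, 8 with the sign of the brightest one and none past the threshold in limma, with 5 at an unadjusted p below 0.05. CYP2C and CYP3A genes have close relatives in the pig genome, and a probe set named for one of them may also bind transcripts of another, which was not tested.

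Many CYP4A enzymes hydroxylate the end of fatty acid chains, and in rodents CYP4A genes are classical targets of the fatty acid receptor PPAR alpha. Whether this holds for each pig gene read here was not tested. The CYP4A genes were read by 2 probe sets whose annotation joins CYP4A21, CYP4A24 and a further locus. Which of these gave the signal cannot be told apart. The one with the higher mean aligns to chr6:117715712-117757409 and read 11.52, 11.93, 12.09 and 11.88 in the non-lactating and 12.47, 12.30, 12.44 and 12.79 in the lactating pools. The groups did not overlap, and this joint CYP4A signal rose by 0.65 ± 0.14 in lactation, 1.57-fold (95% interval 1.27 to 1.95, adjusted p = 0.0268). It kept its call without 4 of the 8 pools, each left out in turn, and lost it without non-lactating pool 1 or 4 or lactating pool 3 or 4, at differences of 0.54 to 0.73. With the 3' minus 5' reading as a covariate the difference was 0.20 (adjusted p = 0.569).

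The other CYP4A probe set read 9.82, 11.05, 10.70 and 10.42 in the non-lactating and 10.79, 11.47, 11.28 and 11.94 in the lactating pools, with an overlap at non-lactating pool 2. Its difference was 0.87 ± 0.28 (adjusted p = 0.0952), and 0.0044 with the 3' minus 5' covariate (adjusted p = 0.997). PPARA itself differed by -0.07 (adjusted p = 0.744). Of the 8 probe sets that join several genes of these families, the first CYP4A probe set was the 1 that passed.

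The members grouped as bile acid enzymes were 3 P450s, all with small negative differences and none past the threshold. The joint CYP4A signals above, of which 1 passed, were not part of this group. Leaving them out does not show that those genes have no part in bile acid synthesis, which was not tested. CYP27A1, the mitochondrial sterol hydroxylase of the alternative pathway, read 12.90, 13.08, 13.06 and 13.03 in the non-lactating and 12.90, 13.00, 12.93 and 12.85 in the lactating pools (difference -0.10 ± 0.07, adjusted p = 0.493). CYP7B1, which hydroxylates the oxysterols that CYP27A1 makes, read 11.74, 12.00, 11.89 and 11.54 against 11.61, 11.46, 11.88 and 11.77 (difference -0.11 ± 0.12, adjusted p = 0.644). Their 95% intervals ran from -0.26 to 0.07 and from -0.38 to 0.16.

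CYP8B1, the sterol hydroxylase of cholic acid synthesis in humans and mice, read 3.81, 3.73, 4.13 and 4.29 against 3.71, 3.99, 4.04 and 3.82 (difference -0.10 ± 0.13, adjusted p = 0.738). Its probe set lay among the dimmest 25% of the array, below 4.91, where a change in the transcript may not be seen. Of 18 further bile acid genes 8 were measured and none passed in limma, with a median difference of 0.02 and 1 at an unadjusted p below 0.05. This was SLC10A1, the sodium-dependent bile acid importer, at 0.43 ± 0.12 (adjusted p = 0.0673).

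The group of P450s of steroid hormone, retinoid and vitamin D turnover comprised 8 genes, 2 with positive and 6 with negative differences. None passed the threshold in limma and 1 (CYP19A2) had an unadjusted p below 0.05. CYP2D25, the vitamin D hydroxylase described above, was counted with the CYP2 genes instead (difference 0.53 ± 0.17, adjusted p = 0.0923). CYP26A1, which clears retinoic acid, read 9.29, 8.50, 9.93 and 10.56 in the non-lactating and 7.48, 9.73, 8.73 and 9.90 in the lactating pools. Pools ran from 8.50 to 10.56 within the non-lactating and from 7.48 to 9.90 within the lactating group. The difference of -0.61 ± 0.56 did not pass (adjusted p = 0.577). It was -0.12 without lactating pool 1 and -0.97 without non-lactating pool 2. CYP24A1, which inactivates vitamin D, differed by -0.05 ± 0.08 and CYP27B1, which activates it, by -0.08 ± 0.10.

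The steroidogenic genes CYP11A1 (side-chain cleavage of cholesterol) and CYP17A1 (the step towards androgens and cortisol) differed by 0.05 and -0.14, and the aromatases CYP19A1 and CYP19A2 by -0.05 and -0.19 (adjusted p from 0.175 to 0.831). CYP19A3 was represented by a probe set that read 10.70, 10.71, 10.55 and 10.44 against 10.79, 10.81, 10.64 and 10.73 (difference 0.14 ± 0.08, adjusted p = 0.353). Its 5 other probe sets read only 3.21 to 5.55, differed by -0.14 to 0.05, and none passed. Whether the brightest probe set reads CYP19A3 transcripts was not tested. In all, 5 members lay among the dimmest 25% (CYP2C36, CYP8B1, CYP11A1, CYP19A2 and CYP24A1).

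The sulfotransferases SULT1A1, SULT1E1 and SULT2A1 attach sulfate to phenols, oestrogens and hydroxysteroids such as bile acids, in that order. SULT1E1 read 11.51, 11.70, 12.07 and 11.45 in the non-lactating and 10.92, 10.96, 11.80 and 11.28 in the lactating pools. Lactating pools 1, 2 and 4 lay below every non-lactating pool and pool 3 did not, and the difference was -0.44 ± 0.20 (adjusted p = 0.230). SULT2A1 read 12.67, 12.85, 12.94 and 12.80 against 12.91, 12.93, 13.22 and 13.04, overlapping only through non-lactating pool 3, with a difference of 0.21 ± 0.09 (adjusted p = 0.219). SULT1A1 differed by -0.06 ± 0.20.

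Among the other glutathione transferases, GSTA2, an alpha-class enzyme, read 14.43, 14.40, 14.33 and 14.37 in the non-lactating and 14.34, 14.29, 14.32 and 14.35 in the lactating pools (difference -0.06 ± 0.06, adjusted p = 0.645). MGST1, a membrane-bound transferase that also reduces lipid peroxides, read 13.65, 13.85, 13.85 and 13.65 against 14.00, 13.97, 13.97 and 14.04. The MGST1 groups did not overlap, and the difference of 0.25 ± 0.08 missed the threshold (adjusted p = 0.0827). GSTT1 differed by 0.07 ± 0.15 and MGST3 by 0.03 ± 0.15. GSTO2, read by a joint probe set that names a further locus but not GSTO1, differed by 0.21 ± 0.31 (adjusted p = 0.760).

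Updated gene names added 4 genes to these families (GSTA4, GSTM3, GSTK1 and UGT2B31), none of them past the threshold, while GSTT1 left them because its updated name is a provisional locus. The resulting 39 members again held 2 calls. GSTA4, which conjugates the lipid peroxidation product hydroxynonenal, read 8.34, 10.03, 9.45 and 8.51 in the non-lactating and 10.08, 10.30, 9.79 and 10.64 in the lactating pools. Non-lactating pool 2 lay within the lactating range and the other non-lactating pools below it. The difference was 1.12 ± 0.35 (adjusted p = 0.0844), 1.43 without non-lactating pool 2 (adjusted p = 0.0310), the 1 left-out pool of 8 with which it passed, and 0.18 with the 3' minus 5' covariate (adjusted p = 0.913). By comparison, the other GSTA4 probe set differed by 0.14 ± 0.09 (adjusted p = 0.405).

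No glucuronidation gene passed in limma, with 0 at an unadjusted p below 0.05. The joint UGT1 probe set, which names UGT1A1, UGT1A3 and another locus, read 13.87, 13.89, 13.91 and 13.75 in the non-lactating and 13.96, 13.95, 13.81 and 13.78 in the lactating pools. Its difference was 0.02, with a 95% interval of -0.15 to 0.19 (adjusted p = 0.928). The UGT2B31 probe sets differed by -0.04 ± 0.09 and 0.19 ± 0.10 (adjusted p = 0.850 and 0.323).

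Members varied more between pools than a typical probe set. The SD between pools within groups had a median of 0.18 over the 36 members and of 0.14 over all probe sets, and it exceeded 0.5 for 5 members (CYP1A1, CYP2B22, CYP2C42, CYP2C49 and CYP26A1) against 1.90% of all probe sets. The SD was 1.0 for CYP26A1, 0.84 for CYP2B22 and 0.79 for CYP2C49. At the other end were GSTA2 (0.04), CYB5A (0.05), CYP2E1 and CYP27A1 (0.07 each). The signals of GSTA2, CYB5A and CYP2E1 lay near the top of the array, where ALB had an SD of 0.02, so a small SD there does not show steady transcript levels. Members were read by the brightest probe set of each gene, whereas all probe sets include dim ones and those without a symbol. The difference in spread between these unlike sets was not tested.

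CYP2C49 and a joint probe set that also names it were high in the same pools. Non-lactating pools 2 and 3 and lactating pools 1 and 2 were the high pools for CYP2C49, and they were also the high ones for the probe set that joins CYP2C32, CYP2C34, CYP2C35, CYP2C36 and CYP2C49. That probe set read 9.13, 11.53, 10.96 and 9.32 in the non-lactating and 11.19, 10.98, 8.89 and 8.84 in the lactating pools, a difference of -0.26 ± 0.69 (adjusted p = 0.878) with an SD between pools of 1.24. The dimmer probe set of CYP2C32 had the same high pools, at 7.71 and 7.43 in non-lactating pools 2 and 3 and 7.72 and 7.30 in lactating pools 1 and 2, against 5.77 to 6.25 in the others. The probe sets that stood for CYP2C32, CYP2C36 and CYP2C42 did not, since lactating pool 1 was their lowest lactating pool, at 8.70, 4.16 and 9.56. CYP2C33, which aligns to chr14:115994624-116140980, away from the probe sets of CYP2C49 and its neighbours at chr14:111449531-111757283, had an SD of 0.14. Its signals of 13.99 to 14.45 lay near the top of the array, so this SD does not show steady transcript levels. Whether the high and low pools of CYP2C49 differ in 1 sow or in both cannot be told apart, because their RNA was mixed.

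**Figure D4:**
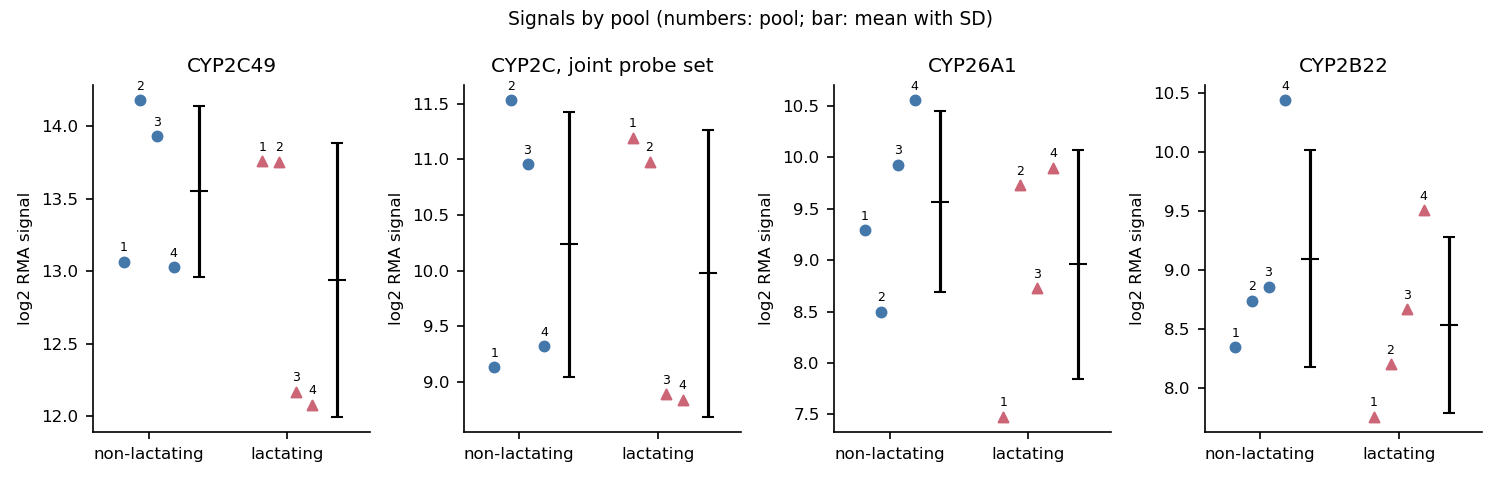
Log2 signals of CYP2C49, the joint CYP2C probe set, CYP26A1 and CYP2B22 in each numbered pool, with the group mean and SD beside the points (n = 4 pools per group). For both CYP2C probe sets, non-lactating pools 2 and 3 and lactating pools 1 and 2 are the high ones, and each panel has its own axis, which does not start at 0.

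Genes that regulate these enzymes, supply their cofactors or export their products were counted against the 8.61% of all genes that passed. None of the 12 measured xenobiotic sensors and hepatic transcription factors passed in limma, with 1 (CEBPA) at an unadjusted p below 0.05 and a median difference of 0.00. NR1I2, the pregnane X receptor, differed by 0.11 (adjusted p = 0.553) and CEBPA, a hepatic transcription factor, by 0.37 (adjusted p = 0.175). Of 18 measured cofactor and other conjugation genes, 2 rose and 1 fell. EPHX1, the microsomal epoxide hydrolase that acts on P450 products, rose by 0.67 ± 0.14 (adjusted p = 0.0256), beside CYB5B. GCLC, the catalytic subunit of the first enzyme of glutathione synthesis, fell by 0.72 on the log2 scale (SE 0.16, adjusted p = 0.0279), and its partner GCLM differed by 0.12 (adjusted p = 0.697). Of 6 measured drug and conjugate transporters none passed in limma, with 2 at an unadjusted p below 0.05, and ABCG2, which exports sulfated conjugates, was at the threshold with 0.64 ± 0.17 (adjusted p = 0.0504).

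Log2 signals ran from 2.75 to 15.2, array means from 6.78 to 6.79 and correlations between arrays from 0.984 to 0.994. ALB, which marks hepatocytes, read 15.2 in every pool. Of the 7 hepatocyte markers measured 1 was lower, SERPINA1, and their mean signal was 14.09 to 14.19 in the non-lactating and 14.04 to 14.17 in the lactating pools. All 8 liver endothelial markers had negative differences and 4 passed, with mean signals of 7.40 to 7.50 against 7.11 to 7.26. Of the 7 stellate and fibroblast markers 2 were lower (8.07 to 8.39 against 7.76 to 8.20), as were 2 of the 6 T and NK cell markers (6.12 to 6.29 against 5.76 to 6.0). No marker of cholangiocytes, macrophages, adrenal cortex or small intestine passed in limma, with 0, 1, 0 and 2 at an unadjusted p below 0.05 in that order, and red cell markers were not analysed here. The part of these markers in the results above was not tested, and in bulk tissue fewer cells of a type and less RNA per cell cannot be told apart.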

How the data were processed

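Per the submitters' processing notes, the authors made the deposited log2 signals with Affymetrix Expression Console and RMA, which corrects background, quantile normalises and summarises probes. Software versions are not stated in the labels or headers. The authors' deposited table also held an unadjusted p-value per probe set (2-tailed, equal variances, per the file headers), which was recomputed with a largest difference of 6.11e-09. Another deposited set of log2 values, rounded to 2 decimals, served as an alternative.

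After 124 control probe sets were left out, 23999 were tested with limma 3.58.1 in R 4.3.3 (lmFit, eBayes without trend) on all 8 arrays, first tested on simulated data. Of these, 11230 had 1 deposited symbol, 326 several and 12443 none. Each gene was represented by its brightest probe set, on the mean of all arrays. The members and lists were chosen with earlier results of these data known. Genes given in every pool are those past the threshold, the bile acid enzymes, the electron donors, and in each family the brightest and the most different member. Others given so (CYP2A19, CYP2D25, CYP2B22, GSTA4 and the joint CYP4A, CYP2C and UGT1 probe sets) were chosen after their values were seen. Updated symbols came from the Sscrofa11.1 gene table, used for names only. No scan dates or slides were used here, and nothing says that pools of equal number belong together.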

Additional observations from a re-analysis of the deposited data

Results flagged for a closer look

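In 3 of 100 groups of 4 pools tested, 1 pool lay far from the other 3 relative to the range of the group, and chance alone flags about 1 group in 20. For CYP24A1, non-lactating pool 3 read 4.14 and the others 4.27 to 4.29. For CYB5A, lactating pool 2 read 14.20 and the others 14.07 to 14.09, and without it the difference was 0.08. For GSTK1, lactating pool 2 read 11.45 and the others 11.21 to 11.25.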

How the results depend on the processing

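The 2 calls, both higher, stayed at 2 with the other deposited values, without the dimmest 25% of probe sets, with the mean of all probe sets of a gene and with updated symbols. With a variance trend and robust estimation 1 member, CYP2A19, was lower beside GSTO1 and POR. With array weights 1 member changed, higher (GSTO1). With cyclic loess 1 changed, 0 higher and 1 lower (CYP2A19), and GSTO1 and POR had adjusted p of 0.0554 and 0.0533. With the replicate block 1 was higher (GSTO1) and 1 lower (CYP2B22), and 1790 probe sets passed. Deviations of same-numbered pools correlated at 0.07 to 0.24 and those of pools with unlike numbers at -0.23 to 0.24. Not every pool correlated best with its own number. With 4 pools per group these values cannot settle whether same-numbered pools belong together. With the authors' deposited p after Benjamini-Hochberg adjustment 0 members and 0 probe sets passed, and unadjusted 8 members and 4964 probe sets did. With the 3' minus 5' covariate 0 members and 0 probe sets passed in limma, 2474 at an unadjusted p below 0.05, the median of the members moved from -0.05 to -0.15, and 4 members turned negative, CYP3A39 (-0.0891), CYP3A22 (-0.18), CYP11A1 (-0.03) and MGST3 (-0.32). Leaving out 1 pool at a time gave 0 to 2 members changed, 0 to 2 higher, 0 to 1 lower, and 406 (without non-lactating pool 1) to 1424 probe sets. No member passed without non-lactating pool 1, 3 or 4 or lactating pool 1 or 4. CYP2E1 then ranged from -0.0516 to 0.0103 and CYP8B1 from -0.18 to 0.0041. The 3' minus 5' difference, left-out pools added after seeing the data, ranged from -0.83 to -0.53. Beyond the fewer pools, the cause of these changes was not tested. Dim probe sets limit what can be seen of 5 members, and signals near the top of the array may hide changes of the brightest ones.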
